A study of Arabidopsis thaliana with 24 samples.

Results

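The PHYTOCHROME-INTERACTING FACTORS (PIFs) are a small family of basic helix-loop-helix transcription factors of Arabidopsis thaliana, and their transcripts are described here across 4 genotypes of seedlings. The members were taken as a list of gene identifiers, PIF1 (AT2G20180), PIF3 (AT1G09530), PIF4 (AT2G43010), PIF5 (AT3G59060), PIF6 (AT3G62090), PIF7 (AT5G61270) and PIF8 (AT4G00050), which are 7 of the 33612 genes in the count table. All 7 members were among the 22130 genes that passed the filter on low counts. The RefSeq annotation lists PIF1, PIF5, PIF6 and PIF8 under the names PIL5, PIL6, PIL2 and UNE10.

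Poly(A) RNA of total 9-day-old seedlings was sequenced in 12 libraries, 3 biological replicates of each of 4 genotypes. WT is the wild type; the pkl libraries carry the pkl-1 allele of PKL, a CHD3 chromatin remodeller; the pif4 libraries are labelled as mutant in PIF4, with no allele number; and the pklpif4 libraries are labelled pkl-1pif4. The column names carry the number 28 and the labels describe continuous white light with that number in an unclear unit, read here as a temperature in °C, so that the growth condition, which all 12 libraries share, rests on names alone. The values deposited for red-light samples were the same as those used here, so the values cannot tell which light the libraries had. The libraries held 37762216 to 56492669 counts.

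Light turns phytochromes into an active form that enters the nucleus and binds PIFs, which are then phosphorylated, ubiquitinated and degraded. Without that signal, PIFs bind G-box (CACGTG) and PBE-box (CACATG) motifs and drive elongation growth while holding back greening and seed germination. PIF4 is the member best known for growth in warmth, PIF5 and PIF7 act with it in elongation and shade, PIF3 is known from dark-grown seedlings, and PIF1 is known as a repressor of seed germination and chlorophyll synthesis.

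PIF4 and PIF5, the most abundant members, each hold a G-box, the motif that PIFs bind, near the start of their transcript, and these sites are shown for that reason. The letters come from the RefSeq TAIR10.1 genome, 5′ to 3′ on the strand of the gene, with the 6-letter motif in capitals. The site of PIF4 lies on chromosome 2, + strand, chr2:17886328-17886357, and that of PIF5 on chromosome 3, - strand, chr3:21830552-21830581.
PIF4: cccagaacttgcCACGTGtcgttcatttca
PIF5: ctgacaattcgcCACGTGtcggtcatcctg
The 2 stretches had the same base at 20 of 30 positions, with a longest shared run of 11 bases. The G-box of PIF4 stood 81 bases before the first exon base of the deposited gene model, and that of PIF5 56 bases before it. In the RefSeq models both lie inside an exon and before the first coding base, 239 and 268 bases after the RefSeq start. A G-box on either strand was found in 6.75% of 33332 windows of 250 bases before deposited gene starts.

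PIF7 holds the other motif. A PBE-box stood 140 bases before its deposited start, at chr5:24640729-24640758 on the - strand, and overlapped a reverse copy of the same motif that starts 2 bases further on. In the RefSeq model both copies lie inside an exon and before the first coding base, 19 and 21 bases after the RefSeq start.
PIF7: aatcctttgccaCACATGtgcttcgtccac
A PBE-box occurred in 3366 of the 33332 windows, and neither motif was found in the windows of PIF1, PIF3, PIF6 and PIF8. In the 250 bases before the RefSeq start, PIF5 held a further G-box and PIF4 held none; in 33054 such windows, 5.86% held a G-box and 11.2% a PBE-box. These promoter stretches, chr2:17885851-17886100 (+) for PIF4 and chr3:21830838-21831087 (-) for PIF5, are shown since the 2 genes make up most of the family's transcript.
PIF4: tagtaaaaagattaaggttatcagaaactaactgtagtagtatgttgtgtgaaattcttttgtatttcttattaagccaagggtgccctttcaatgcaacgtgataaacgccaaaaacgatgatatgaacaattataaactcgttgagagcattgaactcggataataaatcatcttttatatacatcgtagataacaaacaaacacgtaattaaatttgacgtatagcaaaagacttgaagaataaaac
PIF5: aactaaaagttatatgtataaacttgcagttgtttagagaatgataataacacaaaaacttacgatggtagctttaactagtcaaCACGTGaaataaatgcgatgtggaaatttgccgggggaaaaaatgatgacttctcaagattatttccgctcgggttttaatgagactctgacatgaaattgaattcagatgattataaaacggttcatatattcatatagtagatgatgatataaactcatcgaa
A motif match describes letters only, and no binding was measured.

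PIF5 and PIF4 dominated the family in WT, and PIF6 and PIF7 were its least abundant members. The FPKM are the authors' values, which equal counts scaled to exon length and library total. On this scale the mean WT level was 101.0 ± 1.32 for PIF5 and 56.03 ± 2.52 for PIF4 (SD, n = 3). PIF8 followed at 32.5, PIF1 at 23.8 and PIF3 at 16.9 FPKM, and PIF6 and PIF7 stood at 6.62 and 5.48 FPKM. PIF5 thus lay at the percentile 95 of all tested genes by WT FPKM and PIF7 at the percentile 40.3. In WT no 2 neighbours in this order overlapped between libraries.

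The order by FPKM, or the separation of neighbours in it, differed between genotypes at 3 places. In the pif4-labelled libraries PIF4 stood above PIF5, with 98.4 to 102 against 91.6 to 94.0 FPKM. In the pklpif4-labelled libraries PIF4 and PIF5 overlapped, at 83.1 to 84.6 and 84.5 to 85.0 FPKM. PIF7 stood above PIF6 in both pif4-labelled and pklpif4-labelled libraries, while the 2 genes overlapped in the pkl-labelled ones. PIF8 and PIF1 overlapped in the pklpif4-labelled libraries and in no other genotype, with PIF8 the higher by mean in every genotype.

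**Figure D1:**
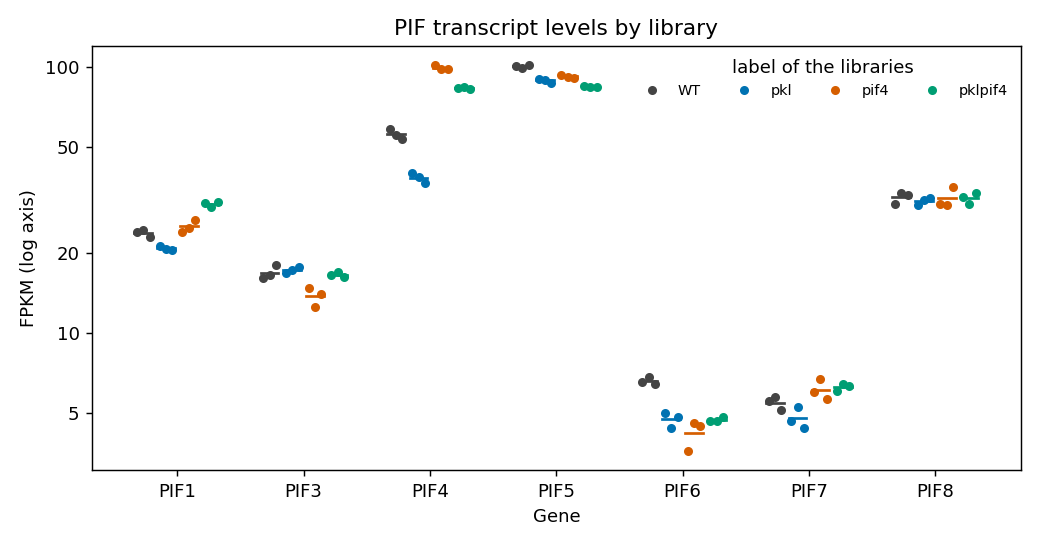
FPKM of the 7 PIF genes (log axis) in each of the 12 libraries, 3 points a genotype with a bar at their mean. PIF4 spans 36.6 FPKM in a pkl-labelled library to 102 FPKM in a pif4-labelled one, while PIF8 stays between 30.3 and 35.6 FPKM in every library.

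Neither targeted gene showed less transcript in the libraries labelled as its mutant, so transcript levels did not check the labels, and directions below rest on the labels. PKL stood at 93.0, 97.6 and 101 CPM in WT (normalised read counts, scaled to library size with TMM factors) and at 99.4, 107 and 101 CPM in the pkl-labelled libraries. PIF4 was higher in the pif4-labelled libraries than in WT. Protein was not measured.

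PIF4, the thermal growth regulator of the family, moved most. It is also the gene named in the pif4 and pklpif4 labels, so its counts there would be those of the mutated gene. Only the comparison of pkl-labelled with WT libraries is free of that label. The PIF4 level was 105, 99.996 and 96.0 CPM in WT, and 68.4, 66.4 and 62.5 CPM in the pkl-labelled libraries. It was 178, 172 and 172 CPM in the pif4-labelled libraries and 149, 149 and 147 CPM in the pklpif4-labelled libraries. The genotypes did not overlap, and their order from lowest was pkl, WT, pklpif4 and pif4. Against WT, PIF4 fell by 0.61 ± 0.03 on the log2 scale (SE) in the pkl-labelled libraries (edgeR quasi-likelihood test, Benjamini-Hochberg adjusted p = 2.33e-31). The rise was 0.79 ± 0.03 under the pif4 label (adjusted p = 8.02e-42) and 0.56 ± 0.03 in the pklpif4-labelled libraries (adjusted p = 4.77e-30). The difference of pklpif4-labelled from pkl-labelled libraries was 2.25-fold, and that of pif4-labelled from pkl-labelled libraries was 2.65-fold, the only member differences over 2-fold among the 6 pairs of genotypes. In whole seedlings, a change in the share of cells that make a transcript and a change in transcript per cell cannot be told apart.

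PIF5, the closest family member to PIF4, fell in all 3 mutants. It was measured at 215, 211 and 216 CPM in WT and at 183, 182 and 177 CPM in the pkl-labelled libraries. The pif4-labelled libraries held 194, 190.2 and 189 CPM, and the pklpif4-labelled libraries 178, 176 and 177 CPM. All WT libraries were above all mutant libraries, and the pkl-labelled and pklpif4-labelled libraries overlapped. The log2 change against WT was -0.24 ± 0.03 for pkl (adjusted p = 4.87e-14), -0.16 ± 0.03 for pif4 (adjusted p = 2.06e-07) and -0.27 ± 0.03 for pklpif4 (edgeR, adjusted p = 2.04e-16). PIF4 and PIF5 thus moved the same way in the pkl-labelled libraries and opposite ways in the other two mutants.

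PIF1, the repressor of germination, changed direction with genotype. WT held 48.7, 49.5 and 46.7 CPM and the pkl-labelled libraries 41.0, 40.1 and 39.9 CPM. The pif4-labelled libraries held 47.7, 49.2 and 52.8 CPM, and the pklpif4-labelled libraries 62.2, 59.3 and 62.3 CPM. The pkl-labelled libraries were the lowest and the pklpif4-labelled the highest, each apart from the rest, while WT and pif4-labelled libraries overlapped. PIF1 fell by 0.26 ± 0.05 on the log2 scale in the pkl-labelled libraries (edgeR, adjusted p = 1.48e-06) and rose by 0.34 ± 0.05 in the pklpif4-labelled ones (adjusted p = 2.58e-10). The pif4-labelled value was 0.05 ± 0.05 (adjusted p = 0.503). Against the pkl-labelled libraries, the pklpif4-labelled ones were 0.60 ± 0.05 higher (adjusted p = 9.29e-22). AT2G20170 on the opposite strand overlaps PIF1 by 334 bases with 922 counts in all 12 libraries, and the strand setting of the counting is not given in the sources used here, so PIF1 could hold some of its reads. AT2G20170 held 1.54, 1.498, 1.47 and 2.33 CPM in WT, pkl-labelled, pif4-labelled and pklpif4-labelled libraries, and was called higher in the pklpif4-labelled libraries against each of the other 3 genotypes, as PIF1 was. Its part in the PIF1 result was not tested.

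PIF3, a repressor of light responses in dark-grown seedlings, was low in the pif4-labelled libraries alone. It stood at 33.2, 34.1 and 37.2 CPM in WT and at 33.2, 33.9 and 34.9 CPM in the pkl-labelled libraries. The pif4-labelled libraries held 29.7, 25.3 and 28.34 CPM and the pklpif4-labelled libraries 33.8, 34.4 and 33.0 CPM. The pif4-labelled libraries lay below every other library, and the other 3 genotypes overlapped. Its log2 change against WT was -0.32 ± 0.06 in the pif4-labelled libraries (edgeR, adjusted p = 1.96e-06). The values for pkl, -0.03 ± 0.06 (adjusted p = 0.655), and pklpif4, -0.04 ± 0.06 (adjusted p = 0.556), did not pass the threshold of 0.05.

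PIF6, described in seed dormancy and seedling de-etiolation, was highest in WT. Its level was 12.1, 12.7 and 11.9 CPM in WT and 8.82, 7.74 and 8.49 CPM in the pkl-labelled libraries. It was 6.48, 8.28 and 8.01 CPM under the pif4 label and 8.50, 8.45 and 8.81 CPM under the pklpif4 label. All mutant libraries lay below all WT libraries, and the pkl-labelled ones overlapped both other mutants. The log2 change against WT was -0.55 ± 0.10 for pkl (adjusted p = 3.62e-06), -0.69 ± 0.11 for pif4 (adjusted p = 3.37e-08) and -0.51 ± 0.10 for pklpif4 (edgeR, adjusted p = 1.54e-05). AT3G62080 on the opposite strand overlaps PIF6 by 231 bases and had 11067 counts in all 12 libraries, more than PIF6 itself, so some PIF6 counts could belong to it. AT3G62080 was not called against WT in any mutant, with log2 changes of -0.16 ± 0.07, -0.04 ± 0.07 and -0.14 ± 0.07 in the pkl-labelled, pif4-labelled and pklpif4-labelled libraries. The part of AT3G62080 in the PIF6 result was not tested.

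PIF7, a shade and warmth regulator, was low in every library. WT held 8.36, 8.66 and 7.68 CPM, and the pkl-labelled libraries 6.70, 7.55 and 6.28 CPM. The pif4-labelled libraries held 8.79, 9.82 and 8.26 CPM and the pklpif4-labelled libraries 9.01, 9.49 and 9.41 CPM. The pkl-labelled libraries lay below the others, and the pif4-labelled libraries overlapped both WT and the pklpif4-labelled ones. The log2 change of -0.27 ± 0.11 in the pkl-labelled libraries passed narrowly (edgeR, adjusted p = 0.035), while those of 0.12 ± 0.11 for pif4 (adjusted p = 0.433) and 0.18 ± 0.11 for pklpif4 (adjusted p = 0.171) did not. The pkl-labelled call was lost in 8 of 22 alternatives, among them leaving out WT replicate 1 (adjusted p = 0.0851), WT replicate 2 (0.112), pkl replicate 1 (0.089) or pkl replicate 3 (0.148).

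PIF8, known to repress germination and far-red responses, was the steadiest member. It stood at 46.7, 51.4 and 50.1 CPM in WT, and at 44.0, 46.1 and 46.7 CPM in the pkl-labelled libraries. The pif4-labelled libraries held 45.5, 45.04 and 52.9 CPM and the pklpif4-labelled libraries 48.8, 45.8 and 50.7 CPM. All genotypes overlapped. The log2 change was -0.11 ± 0.05 in the pkl-labelled libraries, at the edge of the threshold (edgeR, adjusted p = 0.0482), and the call was lost in 11 of 22 alternatives. The adjusted p was 0.206 without WT replicate 2, 0.119 without WT replicate 3, 0.192 without pkl replicate 1 and 0.0617 without pkl replicate 2. The pif4 value was -0.05 ± 0.05 (adjusted p = 0.52) and the pklpif4 value -0.03 ± 0.05 (adjusted p = 0.669).

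Counted over the family against WT, 0 of 7 members rose and 6 fell in the pkl-labelled libraries, where 53.6% of all tested genes were called, 27.1% higher and 26.5% lower. Library totals in place of TMM factors moved the share of higher calls over all genes from 50.5% to 62%. With those totals PIF7 and PIF8 were no longer called (edgeR, adjusted p = 0.121 and 0.452). Over the 22 alternatives 4 to 6 members were called, the low end being close to the background share. In the pif4-labelled libraries 1 member, PIF4 itself, rose and 3 fell, against 32.5% of all genes called (16.2% in each direction). The share of higher calls there went from 50% to 61.2% with library totals. In the pklpif4-labelled libraries 2 rose and 2 fell, with 54.8% of genes called (27.2% higher, 27.7% lower), so that the 4 of 7 called members are close to the background share. Median log2 changes of the members were -0.26, -0.05 and -0.03 in the pkl-labelled, pif4-labelled and pklpif4-labelled libraries, beside medians over all tested genes of 0.000599, 0.000143 and -0.00185. The 3 comparisons share the WT libraries.

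**Figure D2:**
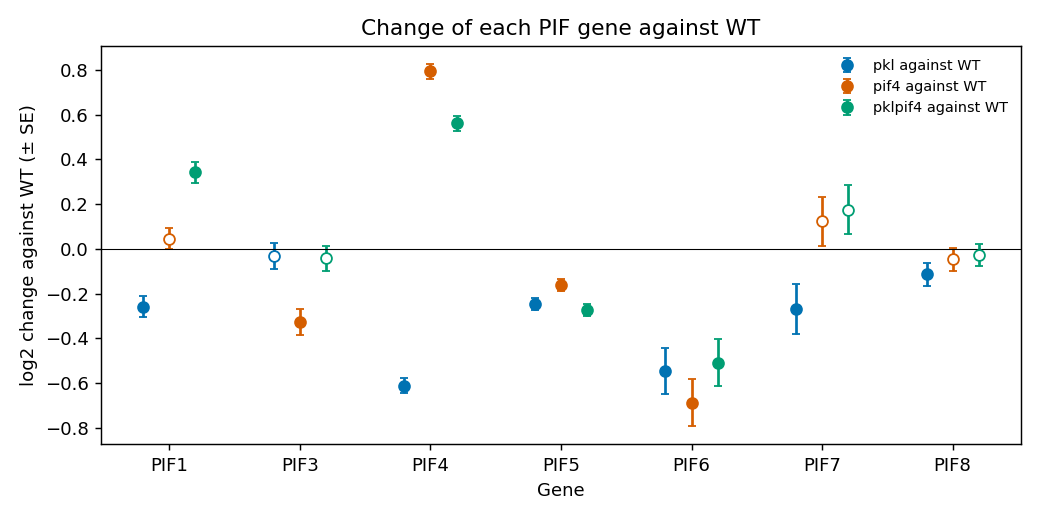
log2 change against WT with its SE (y axis) for each PIF gene in the pkl-labelled, pif4-labelled and pklpif4-labelled libraries, 3 libraries a group, with filled symbols where the adjusted p was under 0.05. PIF4 goes from -0.61 in the pkl-labelled to 0.79 in the pif4-labelled libraries, and PIF6 and PIF5 are below 0 in all 3.

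Between mutants, 3 members rose and 0 fell in the pklpif4-labelled libraries against the pkl-labelled ones. These are 42.9% of the members, close to the 39.9% of all genes called, 19.5% higher and 20.5% lower. Of all calls over the genes, 48.8% were higher, or 37.4% with library totals. The 3 members were PIF4 at 1.17 ± 0.03 (adjusted p = 7.74e-56), PIF1 at 0.60 ± 0.05 (adjusted p = 9.29e-22) and PIF7 at 0.44 ± 0.11 on the log2 scale (edgeR, adjusted p = 0.000489). With library totals PIF5 was also called, as lower (edgeR, adjusted p = 0.0135). Against the pif4-labelled libraries, the pklpif4-labelled ones had higher PIF1, at 0.30 ± 0.05, and PIF3, at 0.28 ± 0.06, and lower PIF4, at -0.23 ± 0.03, and PIF5, at -0.11 ± 0.03. In that comparison 50.2% of genes were called, 25.5% higher and 24.7% lower, beside 4 of the 7 members (57.1%), a share near that background. Between the pkl-labelled and pif4-labelled libraries 5 of 7 members were called, with a background of 53.4% (27% higher, 26.3% lower): PIF3 was 0.29 ± 0.06 higher in the pkl-labelled libraries, and PIF4, PIF7, PIF1 and PIF5 were lower, at -1.40, -0.39, -0.30 and -0.08 on the log2 scale.

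The effect of pkl on PIF genes differed between the WT background and the pif4-labelled background. In the WT background 6 genes fell and PIF3, at -0.03, was not called, and in the pif4-labelled background it was positive for PIF1 and PIF3, negative for PIF4 and PIF5, and not called for PIF6, PIF7 and PIF8. The difference of the 2 effects on the log2 scale (the interaction) passed for 5 of 7 members, all in the positive direction, where 31.9% of all genes passed, 15.3% positive and 16.5% negative. It was 0.72 ± 0.15 for PIF6 (adjusted p = 3.78e-05), 0.56 ± 0.07 for PIF1 (adjusted p = 5.15e-12) and 0.38 ± 0.05 for PIF4 (edgeR, adjusted p = 3.13e-11). PIF3 had 0.32 ± 0.08 (adjusted p = 0.00114) and PIF5 0.13 ± 0.04 (adjusted p = 0.00338), and PIF7 and PIF8 had 0.32 ± 0.16 (adjusted p = 0.109) and 0.13 ± 0.07 (adjusted p = 0.152). The PIF5 interaction was 0.05 with an adjusted p of 0.352 on library totals, where the share of positive calls over all genes went from 48.1% to 31.1%. That of PIF8 passed without pif4 replicate 3, at 0.21 with an adjusted p of 0.0186.

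**Figure D3:**
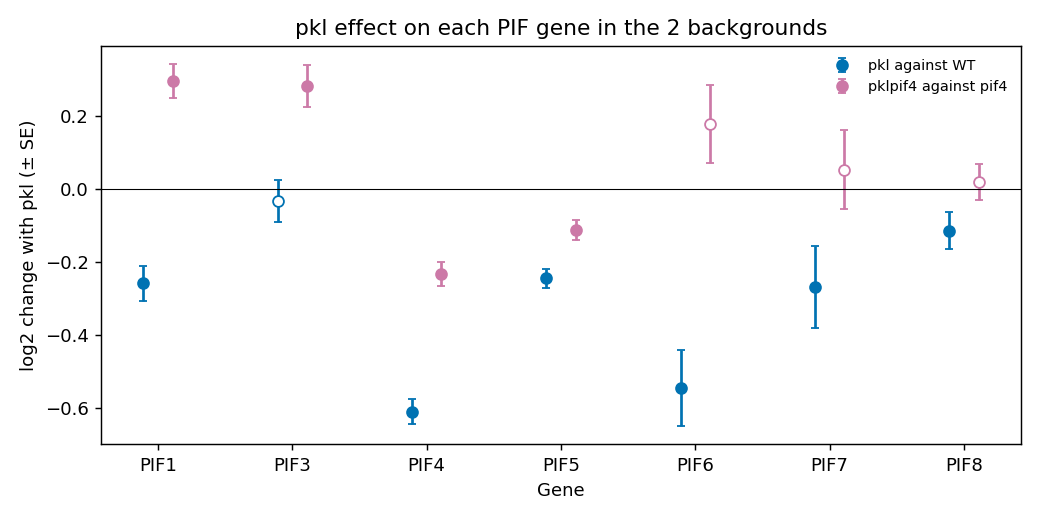
log2 change with pkl, with its SE (y axis), for each PIF gene in the WT background (pkl-labelled against WT libraries) and in the pif4 background (pklpif4-labelled against pif4-labelled libraries), filled where the adjusted p was under 0.05. PIF1 goes from -0.26 to 0.30, while PIF4 stays below 0 in both, at -0.61 and -0.23.

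The pool of PIF transcript was smaller in the pkl-labelled libraries and larger in those labelled pif4. The summed FPKM of the 7 genes was 242 ± 0.945 in WT, 207 ± 2.49 in the pkl-labelled, 274 ± 3.31 under the pif4 label and 259 ± 1.25 under the pklpif4 label (SD, n = 3). The genotypes did not overlap, and each of 5 comparisons had an exact two-sided permutation p of 0.1, the smallest that 3 against 3 libraries allow, and 0.1 after adjustment over the 5. With PIF4, the gene named in the pif4 and pklpif4 labels, left out, the sums were 186 ± 1.63, 168 ± 0.982, 174 ± 3.48 and 175 ± 1.93 FPKM. All 3 mutants then lay below WT. PIF4 made up 23.1% of the pool in WT, 18.6% in the pkl-labelled, 36.4% under the pif4 label and 32.4% under the pklpif4 label. PIF5 made up 41.7%, 43.2%, 33.8% and 32.7%, and the ratio of PIF4 to PIF5 FPKM was 0.555, 0.430, 1.08 and 0.991.

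**Figure D4:**
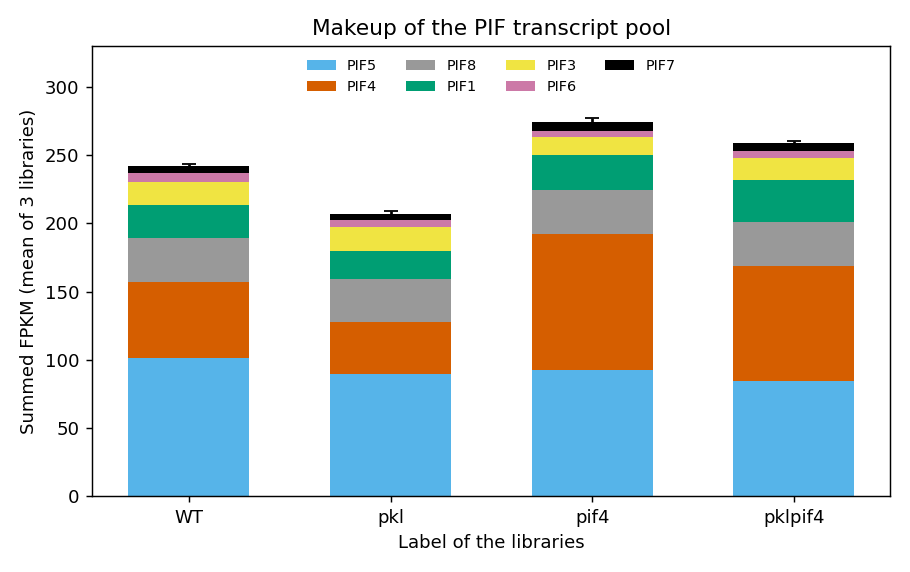
Summed FPKM (y axis, from 0) of the PIF genes, stacked by gene, as the mean of 3 libraries per genotype, with the SD of the sum as error bar. The PIF4 segment grows from 18.6% of the bar in the pkl-labelled to 36.4% in the pif4-labelled libraries.

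Few genes beside the members were called. Of the 14 nearest tested neighbours, 3 were called in the pkl-labelled libraries, 2 under the pif4 label and 5 under the pklpif4 label, all higher than WT, which are smaller shares than the backgrounds above. The gene next to PIF4 on one side, PAO2, a polyamine oxidase 2452 bases away, rose from 24.4 ± 3.04 CPM in WT to 159 ± 5.04 under the pif4 label and 122 ± 3.42 under the pklpif4 label, beside 27.7 ± 2.52 in the pkl-labelled ones. Its counts were equal to those of the overlapping gene model AT2G43018. NAC042 on the other side of PIF4 had 0.310 CPM in WT and 0.751 and 1.01 CPM in the pif4-labelled and pklpif4-labelled libraries. AT5G61260, 173 bases from PIF7, rose by 0.88 ± 0.19 on the log2 scale in the pkl-labelled libraries (edgeR, adjusted p = 6.01e-05), where PIF7 was lower. AT4G00040 beside PIF8 rose by 0.30 ± 0.05 (adjusted p = 1.24e-07).

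Over the 12 libraries the members' patterns differed in size and shape. The spread of centred log2 CPM (root mean square) was 0.545 for PIF4, 0.276 for PIF6, 0.217 for PIF1, 0.191 for PIF7, 0.146 for PIF3, 0.108 for PIF5 and 0.0815 for PIF8. The root mean square difference between members also depends on the size of these spreads. It was smallest for PIF5 and PIF8, at 0.117, and for PIF1 and PIF7, at 0.131. The value for PIF5 and PIF8 was above the spread of either gene, so it reflects small changes in both rather than a shared shape. The largest difference was that of PIF4 and PIF6, at 0.679, the members with the widest spreads. Outside the family the closest patterns were those of GSO1 (0.0479), CPN60A and AT1G08910 for PIF1, of GRH1 (0.0638), ACR10 and AT5G24490 for PIF3, and of HDR (0.0258), AT3G54500 and CAS1 for PIF5. GASA6 (0.108), GBF3 and ENODL8 were closest to PIF6, KASI (0.0745), AT3G24506 and AT1G71020 to PIF7, and GRP2 (0.0478), FTA and EBS3 to PIF8. For PIF4 the smallest values were 0.168 for AT1G19530, 0.169 for AT5G35777.1 and 0.173 for AT1G16500.

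Transcripts of the photoreceptors that inactivate PIFs moved unevenly. For pkl, pif4 and pklpif4, 80%, 60% and 60% of the 5 phytochrome genes were called, against 53.6%, 32.5% and 54.8% of all genes. Against WT, 3 rose and 1 fell in the pkl-labelled libraries, 0 rose and 3 fell in the pif4-labelled, and 1 rose and 2 fell in the pklpif4-labelled libraries, with median log2 changes of 0.16, -0.24 and 0.03. PHYB, the main red-light receptor of PIFs, held 149.7 ± 2.6, 167 ± 3.05, 99.1 ± 3.41 and 93.7 ± 1.02 CPM in WT, pkl-labelled, pif4-labelled and pklpif4-labelled libraries. PHYA, the far-red receptor, held 398 ± 8.83, 479.8 ± 5.38, 299 ± 0.518 and 407 ± 7.39 CPM in the same order. PHYB thus fell by 0.59 ± 0.03 under the pif4 label and by 0.68 ± 0.03 under the pklpif4 label on the log2 scale, and rose by 0.16 ± 0.03 in the pkl-labelled ones. The log2 changes in the same 3 comparisons were 0.50, -0.24 and 0.21 for PHYD, all called; -0.33, 0.01 and -0.26 for PHYC, of which the first and last were called; and 0.05, -0.01 and 0.05 for PHYE, none called.

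Among 19 genes for kinases and ubiquitin ligase parts that act on PIFs, 2 rose and 11 fell in the pkl-labelled libraries. In the pif4-labelled libraries 4 rose and 4 fell, and in the pklpif4-labelled ones 1 rose and 10 fell. The shares called were 68.4%, 42.1% and 57.9%, against 53.6%, 32.5% and 54.8% of all tested genes, so that the pklpif4 share was near the background. The changes were small, with medians of -0.13, 0.03 and -0.175 on the log2 scale. BOP2, part of a CUL3 ligase for PIF4, went from 11.7 ± 1.29 CPM in WT to 7.77 ± 1.02 in the pkl-labelled and 7.70 ± 0.264 in the pklpif4-labelled libraries. DET1, a repressor of photomorphogenesis, fell by 0.33 ± 0.05 in the pkl-labelled and by 0.24 ± 0.05 in the pklpif4-labelled libraries, and by 0.12 ± 0.05 in those labelled pif4. The largest rises in the pkl-labelled libraries were those of AT2G25760 and AT3G13670, both at 0.20 ± 0.03. In the pif4-labelled libraries EBF1 and SPA3 rose by 0.14 ± 0.04 and 0.13 ± 0.03, and EBF2 fell by 0.13 ± 0.03. In the pklpif4-labelled libraries LRB2, a light-response ligase part, fell by 0.33 ± 0.03, and COP1, the ubiquitin ligase of photomorphogenesis, rose by 0.11 ± 0.05 (edgeR, adjusted p = 0.0497).

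Of 12 genes for proteins that bind and restrain PIFs, 4 rose and 3 fell in transcript in the pkl-labelled libraries. In the pif4-labelled libraries 3 rose and 6 fell, and likewise 3 rose and 6 fell in the pklpif4-labelled ones. The median log2 changes were 0.07, -0.20 and -0.16 for pkl, pif4 and pklpif4. The shares called were 58.3%, 75% and 75%, against 53.6%, 32.5% and 54.8% of all tested genes, so that the pkl share was near the background. The DELLA genes, whose proteins block PIF binding to DNA, split. GAI fell from 80.1 ± 1.19 CPM in WT to 47.7 ± 2.48 under the pif4 label and 45.5 ± 2.06 under the pklpif4 label, with 70.1 ± 1.44 in the pkl-labelled ones. RGL2 stood at 5.06 ± 0.916 CPM in WT, 7.03 ± 1.36 in the pkl-labelled, 7.30 ± 0.0577 under the pif4 label and 33.2 ± 0.659 under the pklpif4 label, a rise of 2.70 ± 0.10 on the log2 scale in the last. RGA fell by 0.20, 0.43 and 0.45 in the same 3 comparisons. CRY1, a blue-light receptor, fell by 0.49 ± 0.03 in the pkl-labelled libraries, ELF3, a clock protein that holds back PIF4, rose by 0.38 ± 0.04 in the pif4-labelled ones, and PRR9 fell by 1.00 ± 0.15 in the pklpif4-labelled ones. RGL3 rose by 0.44 ± 0.11 in the pkl-labelled and by 1.00 ± 0.10 in the pklpif4-labelled libraries, and fell by 0.39 ± 0.11 in the pif4-labelled ones (edgeR, adjusted p = 0.00332).

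The 10 regulators of PIF4 transcription and PIF4 partners include repressors of PIF4, so their counts carry no single direction for it. Of these genes, 2 rose and 5 fell in the pkl-labelled libraries. In the pif4-labelled libraries 7 rose and 0 fell, beside a background of 16.2% higher. In the pklpif4-labelled libraries 3 rose and 4 fell. The share called was 70% in each, against 53.6%, 32.5% and 54.8% of all genes, and the median log2 changes were -0.125, 0.14 and -0.01. ELF4 and LUX, which with ELF3 form the evening complex that represses PIF4, rose in the pkl-labelled libraries by 1.28 ± 0.20 and 0.54 ± 0.07 on the log2 scale. ELF3 was not called there, at -0.08 ± 0.05 (edgeR, adjusted p = 0.135). A link of these genes to the lower PIF4 in those libraries was not tested. In CPM, ELF4 went from 1.596 ± 0.502 in WT to 3.96 ± 0.282 in the pkl-labelled and 3.85 ± 0.573 in the pklpif4-labelled libraries, and LUX from 18.9 ± 0.996 to 27.5 ± 1.72 in the pkl-labelled and 24.7 ± 1.63 in the pif4-labelled libraries. The auxin response factors ARF6 and ARF8 fell by 0.45 ± 0.05 and 0.41 ± 0.06 in the pkl-labelled libraries. HYH, a homologue of the light regulator HY5, rose by 0.33 ± 0.04 in both pif4-labelled and pklpif4-labelled libraries, and in the latter BES1, a brassinosteroid factor, fell by 0.31 ± 0.03 and ARF6 by 0.24 ± 0.05.

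Among relatives that dimerise with PIFs or compete with them, HFR1 and PIL1 fell most in the pif4-labelled libraries. Of 11 related bHLH and HLH genes, 0 rose and 6 fell there (54.5% called, against 32.5% of all tested genes), while 4 rose and 5 fell in the pkl-labelled and likewise in the pklpif4-labelled libraries, with medians of -0.31, -0.475 and -0.21 on the log2 scale for pkl, pif4 and pklpif4. These 9 of 11 are 81.8% of the list in both, against 53.6% and 54.8% of all genes. HFR1, which binds PIFs into complexes that cannot bind DNA, went from 85.2 ± 2.56 CPM in WT to 51.2 ± 2.16 in the pkl-labelled, 12.7 ± 0.239 under the pif4 label and 12.4 ± 0.609 under the pklpif4 label. PIL1, a shade-induced relative, stood at 8.72 ± 0.784, 11.5 ± 0.55, 1.46 ± 0.258 and 2.60 ± 0.412 CPM. PAR1, an HLH inhibitor, rose by 0.39 ± 0.07 on the log2 scale in the pkl-labelled libraries and PRE1, a growth-promoting HLH gene, fell by 1.54 ± 0.22. HEC1 rose by 1.23 ± 0.22 in the pklpif4-labelled libraries, and HEC2 had 0.0859 CPM in WT and 0.720 CPM in the pklpif4-labelled ones.

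PIF target genes were mostly lower in the pif4-labelled libraries, where the PIF4 transcript was higher. Of 14 targets, 11 fell and 1 rose there (median log2 change -0.88), while 7 rose and 6 fell in the pkl-labelled libraries (median 0.22) and 3 rose and 8 fell in the pklpif4-labelled libraries (median -0.53). The shares called were 85.7% for pif4, 92.9% for pkl and 78.6% for pklpif4, against 32.5%, 53.6% and 54.8% of all tested genes. IAA29, an auxin-response repressor, stood at 6.995 ± 0.374 CPM in WT, 10.5 ± 0.633 in the pkl-labelled, 0.727 ± 0.177 under the pif4 label and 2.40 ± 0.253 under the pklpif4 label. ST2A, a jasmonate sulfotransferase, stood at 31.6 ± 1.04, 22.1 ± 1.76, 3.82 ± 0.719 and 5.89 ± 0.384 CPM. Both were lowest in the pif4-labelled libraries. The auxin synthesis gene YUC8 rose by 0.88 ± 0.15 on the log2 scale in the pkl-labelled and fell by 0.95 ± 0.16 in the pif4-labelled libraries, and YUC9 fell by 1.90 ± 0.24 in the pklpif4-labelled ones. EXPA8, an expansin, and PORC, a chlorophyll synthesis enzyme, fell by 1.43 ± 0.05 and 0.83 ± 0.04 in the pkl-labelled libraries. SOM, a target of PIF1 in the control of germination, stood at 2.54 ± 0.151, 5.44 ± 0.303, 3.54 ± 1.05 and 35.0 ± 2.73 CPM. It rose by 1.09 ± 0.13 on the log2 scale in the pkl-labelled libraries, where PIF1 was lower. SOM was highest in the pklpif4-labelled libraries, where PIF1 was also highest. A link of SOM to PIF1 was not tested. All 9 seed markers also rose in the pklpif4-labelled libraries. PSY, a carotenoid synthesis enzyme, rose there too, at 0.11 ± 0.02 on the log2 scale (edgeR, adjusted p = 2.76e-05).

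**Figure D5:**
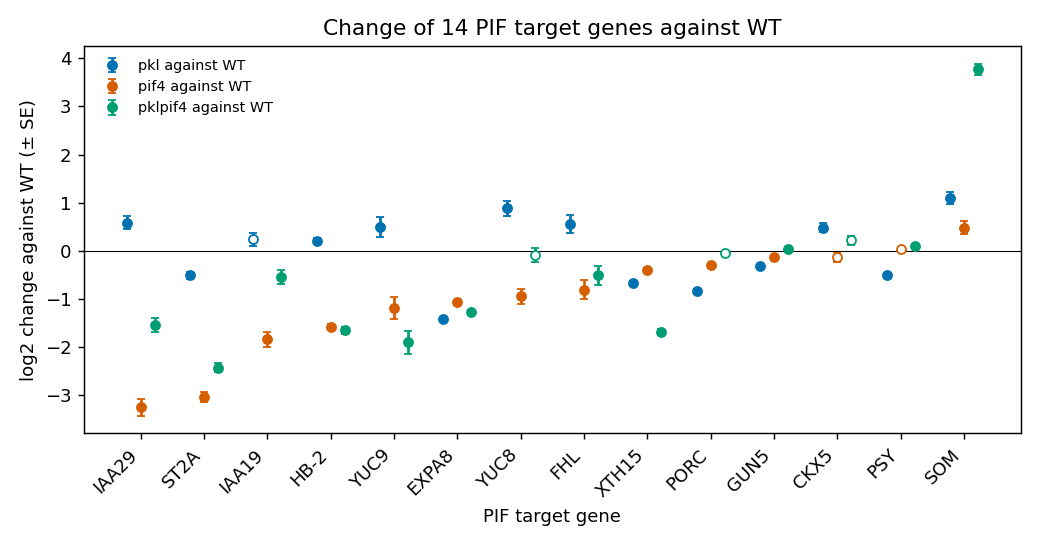
log2 change against WT with its SE (y axis) of 14 PIF target genes, ordered by the pif4-labelled change, in 3 comparisons of 3 libraries with 3 WT libraries, filled where the adjusted p was under 0.05. IAA29 and ST2A are at -3.25 and -3.04 in the pif4-labelled libraries, and SOM is at 3.77 in the pklpif4-labelled ones.

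Markers of organs and of seed also moved with genotype, and their part in the PIF results was not tested. The summed level of 12 root markers was 107 to 115 CPM in WT, 186 to 194 in the pkl-labelled, 197 to 204 under the pif4 label and 150.2 to 157 under the pklpif4 label. NRT2.1 was the 1 marker at 0 counts in the pkl-labelled libraries, and none was at 0 over the libraries of another genotype. Of the 11 root markers tested, 7, 11 and 8 rose in the pkl-labelled, pif4-labelled and pklpif4-labelled libraries, and 1, 0 and 2 fell. The shares called were 72.7%, 100% and 90.9%, against 53.6%, 32.5% and 54.8% of all tested genes. The sum of 7 leaf markers was 21129 to 21526 CPM in WT, 16172 to 16796 in the pkl-labelled, 19179 to 19402 under the pif4 label and 21878 to 22584 under the pklpif4 label, with none at 0. Most of that sum was RBCS1A, at 14743, 12389, 14586 and 15476 CPM in WT, pkl, pif4 and pklpif4. Against WT the calls ran 1 higher and 6 lower, 1 higher and 3 lower, and 2 higher and 3 lower. These are 100%, 57.1% and 71.4% of the leaf markers, beside the same backgrounds. The stomatal genes FAMA and TMM fell by 0.90 ± 0.08 and 1.00 ± 0.10 on the log2 scale in the pklpif4-labelled libraries. They also fell in the pkl-labelled libraries, by 0.60 ± 0.08 and 1.26 ± 0.10, and were not called under the pif4 label. LHCB3 and RBCS1A were the leaf markers called higher in the pklpif4-labelled libraries, by 0.21 ± 0.02 and 0.07 ± 0.01. The sum of 9 seed markers was 53.1 to 55.2 CPM in WT, 64.0 to 69.4 in the pkl-labelled, 58.4 to 59.9 under the pif4 label and 4172 to 4216 under the pklpif4 label, in which all 9 rose. In the pkl-labelled libraries 7 seed markers rose and 2 fell, and in the pif4-labelled libraries 5 rose and 2 fell. In both, CRU3 and SESA5 were the 2 that fell. The shares of seed markers called were 100%, 77.8% and 100% for pkl, pif4 and pklpif4. The log2 changes in the pkl-labelled and pif4-labelled libraries were -3.89 ± 0.07 and -3.30 ± 0.07 for CRU3, and -1.35 ± 0.20 and -3.18 ± 0.28 for SESA5.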

How the data were processed

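The authors deposited raw counts per gene and FPKM. Reads were handled with fastp, HISAT2 2.1.0 and SAMtools 1.6 on TAIR10, per the submitters' processing notes. How reads were counted, strand included, is not given in the sources used here. FPKM as deposited by the authors equal counts scaled by exon length and library total. Tables for red-light samples held the same values as those used, and their 24 columns were not used. Low counts were mostly even (70.9% to 74.3% of counts of 1 to 8), so halved counts were an alternative.

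Counts of 22130 genes passing filterByExpr (minimum count 10, minimum total 15) were fitted in edgeR 4.0.16 (R 4.3.3) with TMM factors and 1 mean per genotype, using the robust quasi-likelihood test and Benjamini-Hochberg adjustment over all tested genes at 0.05. The SE is the log2 change divided by the square root of F. The procedure was tested on simulated data. Summed FPKM were compared by exact permutation. Alternatives used DESeq2 1.42.0 and limma 3.58.1. Sequences are from RefSeq TAIR10.1; 80.8% of 169385 exons in the count table had the same ends there.

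Named genes were all 7 members, all phytochrome genes, the 2 largest called rises and falls of each other pathway list in each comparison (printed here for those against WT only), the neighbours, and the 3 genes of most similar pattern per member. The members and lists were chosen with earlier results of these data known. The labels call the replicates biological; same-numbered libraries did not deviate together (correlations of -0.0267 to 0.0202 over 18 pairs), so numbers were not treated as pairs.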

Additional observations from a re-analysis of the deposited data

Results flagged for a closer look

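The effect of pkl differed between the WT background and the pif4-labelled background for 5 PIF genes, by edgeR's test of the difference itself on 3 libraries per genotype. The difference on the log2 scale was 0.56 for PIF1, 0.32 for PIF3, 0.38 for PIF4, 0.13 for PIF5 and 0.72 for PIF6. For PIF1 the effect was negative in the WT background and positive in the pif4-labelled one. For PIF4 and PIF5 it was negative in both and smaller in the pif4-labelled one. In that background PIF4 is itself the gene labelled as mutant.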

How the results depend on the processing

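Of 49 member results (7 members in 7 comparisons), 34 kept direction and call in every alternative; 24 values lost a call, 3 gained one and 16 changed sign, 0 of these 16 past the threshold. On log2(FPKM + 1) with limma, 3 members in place of 5 had an interaction, PIF3 (adjusted p = 0.0555) and PIF5 (0.318) being lost. The cause was not tested. With FPKM divided by TMM factors the difference in summed FPKM was -45.9 for pkl against WT, 25.3 for pif4, 13.5 for pklpif4, 59.3 for pklpif4 against pkl and -11.8 for pklpif4 against pif4, in place of -35.5, 31.6, 16.7, 52.2 and -14.9, with shares untouched by construction. The order of members in WT was the same by CPM without length scaling. The replicate number as a block gave 6, 4 and 4 members called against WT for pkl, pif4 and pklpif4 and changed no member call.

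Sign changes in values that were not called came with library totals (PIF3, pkl against WT, 0.034; PIF6, pklpif4 against pkl, -0.0099), on log2(FPKM + 1) (0.032 and -0.0044 for the same results), and with 1 library left out. Over the 12 such fits, PIF3 ranged from -0.070 to 0.014 for pkl against WT (without WT replicate 3), from -0.078 to 0.0054 for pklpif4 against WT (WT 3) and from -0.027 to 0.010 for pklpif4 against pkl (pkl 3 or pklpif4 3). PIF6 ranged from -0.012 (pkl 2) to 0.081 for pklpif4 against pkl. PIF8 ranged from -0.069 to 0.012 for pklpif4 against WT (WT 2 or pklpif4 2), from -0.022 (pif4 1, pif4 2 or pklpif4 3) to 0.096 for pklpif4 against pif4, and from -0.108 to 0.0086 (pif4 3) for pkl against pif4. PIF7 ranged from -0.00033 (pif4 3) to 0.12 for pklpif4 against pif4. PIF5 was called lower in pklpif4 against pkl with library totals (adjusted p = 0.0135) and on log2(FPKM + 1) (0.0203), and its pkl against pif4 call was lost there (0.093 and 0.0888). PIF6 and PIF7, with the fewest counts, had the widest SE.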
